A study of Mus musculus with 6 samples.

Results

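The genes described here were 10 genes of acetylcholine transmission among the 54429 gene symbols counted in bulk RNA of the mouse prefrontal cortex (PFC). They were taken by symbol, and each had a row in all 6 libraries. Chat, Slc5a7 and Slc18a3 are made by the neurons that release acetylcholine. Ache encodes the enzyme that breaks acetylcholine down, and the remaining 6 encode receptors found on many kinds of cortical neuron, the muscarinic receptors Chrm1, Chrm2, Chrm3 and Chrm4 and the nicotinic subunits Chrna4 and Chrnb2. The comparisons below ask whether the genes of the releasing cells and those of the receiving cells differ in the same way between the groups.

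The study compared 3 groups of mice aged 6 months, with 2 libraries from different animals in each. WT mice, labelled (C57BL/6 x C3H), carried no transgene and received vehicle, which was saline with DMSO. Tau mice, labelled PS19(P301S), carry a human tau transgene with the P301S substitution under the mouse prion promoter, which is active in many cells of the brain and is not confined to neurons, and received vehicle. Tau mice of the third group, called UNC0642 below, carried the same transgene and received UNC0642, an inhibitor of EHMT1 and EHMT2, the enzymes that place H3K9me2 on histone H3. All mice were injected intraperitoneally, once a day for a short course.

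Acetylcholine is made from choline and acetyl-CoA by choline acetyltransferase (Chat). It is loaded into synaptic vesicles by the vesicular transporter Slc18a3, and the choline left after Ache has acted is taken back into the terminal by the high-affinity transporter Slc5a7. Most cholinergic fibres of the cortex come from cell bodies in the basal forebrain, whose mRNA is largely outside a cortical dissection, while the striatum below the cortex holds cholinergic interneurons of its own. Muscarinic receptors act through G proteins, Chrm1 and Chrm3 mainly through Gq and Chrm2 and Chrm4 through Gi. Chrna4 and Chrnb2 join into the most common high-affinity nicotinic channel of the brain.

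Several features of the libraries bear on every value below. Total counts per library ran from 17005664 to 28972176, so a gene without reads could still have stood at 0.104 to 0.176 CPM (counts scaled to the size of the library), the level of 3 counts. The levels of Xist and the Y-linked Ddx3y showed a female pattern in both Tau libraries (Xist 5340 and 4104 counts) and a male pattern in both UNC0642 libraries (Ddx3y 1705 and 2241 counts), so that the drug and the sex of the mice cannot be told apart in these 4 libraries. The library labelled WT replicate 1 had the male pattern and the other WT library the female one. Prnp, the gene whose promoter drives the transgene, stood at 1652 CPM in the library labelled WT replicate 1, within the 1470 to 1694 CPM of the 4 transgenic libraries, and at 873 CPM in WT replicate 2. Mapt, the mouse gene of tau, was at 575.6 CPM in the library labelled WT replicate 1, within the 570.5 to 614.0 CPM of the transgenic libraries, and at 448.7 CPM in WT replicate 2. The library labelled WT replicate 1 was thus closer to the transgenic libraries than to the other WT library in both genes. For the 9 tested genes of the 10, the comparisons with WT are given with and without it. For other genes, and for sums, ratios and counts over gene lists, they are in part given only with it. Where a fit below has a term for sex, that term rests on the WT libraries alone. It cannot tell sex from other differences between them, such as those in Prnp and Mapt. In every library 63.8% to 67.1% of the counts between 1 and 20 were even, against 51.0% to 51.8% of counts over 100, so counting intervals for low genes would be too narrow and are not given.

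The start of each gene is shown first for the 3 genes of the releasing cells and for the 3 receptor genes that passed the test in a comparison, because they differ widely in base composition. Slc5a7 lies at chr17:54273590-54299034 on the minus strand of GRCm38 (GENCODE M21). Chat occupies chr14:32408203-32465989, also on the minus strand. Slc18a3, at chr14:32462438-32464850, lies inside Chat on the same strand, and the annotated exons of both share 0 bases, so that exon counting could tell them apart. The windows below run from 250 bases before the RefSeq start of each gene to 50 bases after it on GRCm38.p6, read 5′ to 3′ on the strand of the gene. They cover chr17:54298985-54299284 for Slc5a7, chr14:32465860-32466159 for Chat, chr14:32464801-32465100 for Slc18a3, chr13:10360754-10361053 for Chrm3, chr2:91921939-91922238 for Chrm4 and chr2:181039128-181039427 for Chrna4. Capitals mark each CG dinucleotide, the site of DNA methylation.
Slc5a7: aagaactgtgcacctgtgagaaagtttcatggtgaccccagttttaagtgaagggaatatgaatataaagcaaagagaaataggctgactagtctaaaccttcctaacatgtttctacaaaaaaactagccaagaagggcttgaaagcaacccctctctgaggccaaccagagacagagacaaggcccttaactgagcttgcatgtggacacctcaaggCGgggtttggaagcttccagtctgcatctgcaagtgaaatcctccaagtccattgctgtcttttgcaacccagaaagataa
Chat: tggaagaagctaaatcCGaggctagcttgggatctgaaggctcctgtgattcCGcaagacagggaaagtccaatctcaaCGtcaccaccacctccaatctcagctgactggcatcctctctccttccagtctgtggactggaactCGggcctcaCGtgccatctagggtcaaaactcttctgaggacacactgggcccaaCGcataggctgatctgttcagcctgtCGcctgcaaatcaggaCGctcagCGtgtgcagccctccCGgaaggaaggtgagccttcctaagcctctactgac
Slc18a3: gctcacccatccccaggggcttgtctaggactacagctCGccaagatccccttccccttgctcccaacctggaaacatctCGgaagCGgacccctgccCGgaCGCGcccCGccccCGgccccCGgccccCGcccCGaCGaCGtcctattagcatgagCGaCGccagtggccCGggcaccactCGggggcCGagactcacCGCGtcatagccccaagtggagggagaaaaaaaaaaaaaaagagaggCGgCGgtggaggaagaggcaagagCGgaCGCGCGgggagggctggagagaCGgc
Chrm3: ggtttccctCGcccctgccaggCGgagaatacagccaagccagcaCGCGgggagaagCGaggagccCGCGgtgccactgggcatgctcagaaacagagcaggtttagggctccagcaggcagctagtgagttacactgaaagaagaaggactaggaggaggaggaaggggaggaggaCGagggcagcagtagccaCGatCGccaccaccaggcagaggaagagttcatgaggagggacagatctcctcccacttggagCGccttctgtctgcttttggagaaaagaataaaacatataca
Chrm4: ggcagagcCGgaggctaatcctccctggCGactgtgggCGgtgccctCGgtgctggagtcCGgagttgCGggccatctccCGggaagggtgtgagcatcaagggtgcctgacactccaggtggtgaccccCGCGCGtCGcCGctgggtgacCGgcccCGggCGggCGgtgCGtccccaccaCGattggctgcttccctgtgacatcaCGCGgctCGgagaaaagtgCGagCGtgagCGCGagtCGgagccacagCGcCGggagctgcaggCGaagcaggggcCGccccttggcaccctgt
Chrna4: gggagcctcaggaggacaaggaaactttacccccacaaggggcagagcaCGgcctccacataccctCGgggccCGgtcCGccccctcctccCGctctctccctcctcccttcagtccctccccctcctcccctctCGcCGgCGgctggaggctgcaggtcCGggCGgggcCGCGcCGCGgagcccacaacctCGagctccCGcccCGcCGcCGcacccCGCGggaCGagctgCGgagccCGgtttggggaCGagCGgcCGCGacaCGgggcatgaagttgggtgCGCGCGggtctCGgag

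The Slc5a7 window held 1 CG, which put it at percentile 5.43 of the 32851 windows of this length in the RefSeq table, whose median was 7. The Slc18a3 window held 27, that of Chat 10, and those of Chrm4 and Chrna4 30 and 33. Chrm3 lay near the middle of the range with 11. Of the receptors not printed, Chrm2 held 16 and Chrnb2 12, and Ache held 30. Chrm1 had no entry, so 9 of the 10 genes were matched. The TATA motif TATAAA was found 1 time in the Slc5a7 window and in no other of the 9, against 13.6% of all windows with it on either strand. GGGCGG, the letters of a GC box, occurred 4 times each in Chrm4 and Ache, 3 times in Chrna4, 2 times in Slc18a3 and 1 time each in Chrm2 and Chrnb2, and 35.7% of all windows held it. The short motif TGACG was present 1 time each in Chat, Slc18a3 and Chrnb2 and in 20.8% of all windows, and CCAAT 2 times in Chat and 1 time each in Chrm2 and Chrm4, against 37.4% of all windows. These matches describe letters in a fixed window and carry no information on binding.

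The genes of the acetylcholine-releasing cells were close to the limit of detection and the receptors were not. Chat had 10 and 7 counts in the WT libraries, 6 and 6 in the Tau libraries and 8 and 10 in the UNC0642 libraries. Slc18a3 had 6 and 2 counts in WT, 6 and 0 in Tau and 2 and 2 in UNC0642, and it did not pass the filter on low counts. Slc5a7 was the best measured of the 3, with 43 and 36 counts in WT, 68 and 56 in Tau and 14 and 24 in UNC0642. In contrast, the lowest count of any of the 6 receptors was the 395 of Chrm4 in UNC0642 replicate 1. The summed receptor counts were between 109.0 and 253.2 times those of the 3 releasing-cell genes in single libraries.

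**Figure D1:**
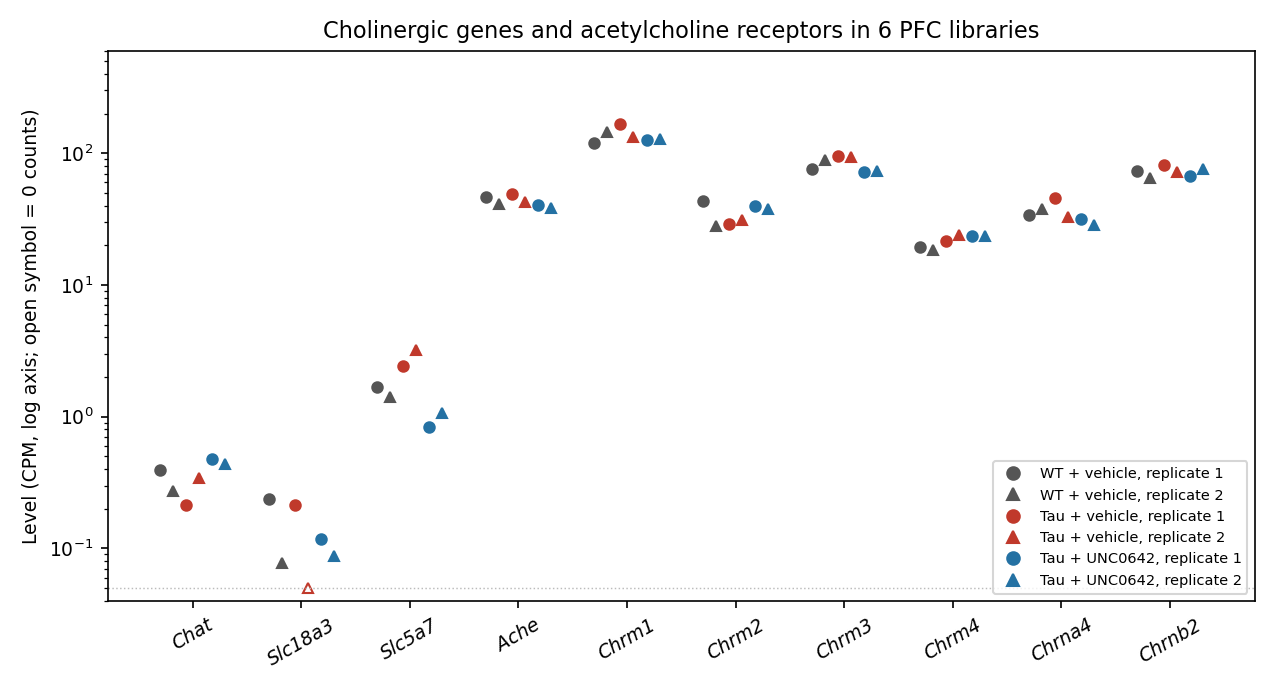
Level of each of the 10 genes in the 6 libraries, in CPM after TMM scaling on a log axis; colour gives the group, the symbol the replicate number, and the open symbol on the dotted line a count of 0. Chat and Slc18a3 sit below 0.5 CPM in all libraries, Slc5a7 between 0.829 and 3.21 CPM, and Ache and the receptors above 18 CPM.

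Levels were then compared between genes per kilobase of annotated exon. Over the 6 libraries, Chrm1 was highest at 18.3 to 25.5 CPM per kilobase, above Chrm4 with a mean of 15.1 and Chrm3 with a mean of 13.3, whose ranges overlapped. The annotated Chrm4 model is only 1440 bases long and starts downstream of the RefSeq start, so its level per kilobase is uncertain. Ache stood at 9.34, Chrnb2 at 8.63, Chrna4 at 5.64 to 9.17 and Chrm2 at 5.76 CPM per kilobase, each overlapping in range with the next in this order. Slc5a7 followed at 0.314 with no overlap with Chrm2, and Chat at 0.0759 and Slc18a3 at 0.0508 overlapped each other. Part of the exons of Chrnb2, 1014 bases, overlap Adar on the opposite strand, and the strand setting of the counting is not given in the sources used here, so its counts could include Adar reads.

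Markers of cortical excitatory neurons were abundant in all libraries, with 8 of them summing to 1314 to 1551 CPM, while the cell bodies of cholinergic neurons were barely represented. Of 8 genes that mark them, 2 passed the filter on low counts, the neurotrophin receptor Ngfr and the vesicular glutamate transporter Slc17a8, which other cells also make. Ngfr had 38 and 22 counts in WT, 36 and 38 in Tau and 0 and 18 with UNC0642, and it was called lower with UNC0642 than in Tau, which was the 1 call among these markers in the comparisons with Tau. Its log2 fold change was -1.97 (SE 0.82, edgeR adjusted p 0.536), and it was not called without Tau replicate 2, without UNC0642 replicate 1 or with a sex term. Isl1, a transcription factor of cholinergic interneurons, had 0 counts in replicate 1 of every group and 6, 10 and 6 counts in replicate 2 of WT, Tau and UNC0642. Lhx8, which directs forebrain cholinergic fate, had 2 counts in Tau replicate 2 and 0 in the other 5 libraries. The vesicular protein Slc10a4 had 10 and 6 counts in Tau, 0 and 0 in WT and 2 and 0 with UNC0642, so both Tau libraries were the highest for it, as they were for Slc5a7. In bulk RNA, fewer cells of a type and less RNA in each cell cannot be told apart.

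Between Tau and WT, which asks what the transgene did under vehicle, Slc5a7 and Chrm4 were higher in Tau and the other 7 tested genes did not pass the test. The test was edgeR's quasi-likelihood test over 20409 genes, and a gene was called where its unadjusted p lay under 0.05 and its fold change reached 1.2. By this rule 2 of the 9 tested genes were called, both higher, where 9.81% of all genes tested were called, 3.72% higher and 6.1% lower. After Benjamini-Hochberg adjustment over all genes the edgeR test called 0 of the 9, against 0.157% of all genes, and DESeq2 and limma-voom also called 0. Without adjustment, DESeq2 placed 0 and limma-voom 3 of the 9 under 0.05.

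Slc5a7, the choline transporter, was at 1.70 CPM in the library labelled WT replicate 1 and 1.41 CPM in WT replicate 2, and at 2.43 and 3.21 CPM in Tau. Both Tau libraries lay above both WT libraries. The log2 fold change was 0.85 (SE 0.34), 1.80-fold, which met the unadjusted rule, while the adjusted p was 0.363 (edgeR, Benjamini-Hochberg). Leaving out the library labelled WT replicate 1, which also leaves only female-pattern libraries in this comparison, gave 0.99, leaving out WT replicate 2 gave 0.72 and leaving out Tau replicate 2 gave 0.65, and none of these 3 fits called the gene. Slc5a7 is one of the genes that the study itself listed as raised in Tau mice and lowered after UNC0642, and that list was chosen on these same libraries, so its direction here is no independent evidence.

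Chat, the enzyme that makes acetylcholine, did not pass the test. It was at 0.394 and 0.273 CPM in WT and 0.215 and 0.344 CPM in Tau, and the groups overlapped. The log2 fold change was -0.30 with an SE of 0.68, so neither a fall nor a rise of the size seen for Slc5a7 could be told from 0 at this depth. Slc18a3 was at 0.237 and 0.0781 CPM in WT and 0.215 and 0 CPM in Tau, under the level of 3 counts in replicate 2 of both groups, and no fold is given. Slc5a7 made up 72.9% and 80% of the counts of the 3 genes together in WT and 85% and 90.3% in Tau.

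Chrm4, a Gi-coupled muscarinic receptor that is most abundant in the striatum, was at 19.3 and 18.4 CPM in WT and 21.6 and 23.9 CPM in Tau. The groups did not overlap, and the log2 fold change was 0.27 (SE 0.11), 1.21-fold, which met the unadjusted rule, while the adjusted p was 0.38 (edgeR, Benjamini-Hochberg). This lay just past the fold limit of 1.2. The call was kept in 1 of the 6 fits that left out a library, and without the library labelled WT replicate 1 the log2 fold change was 0.30 and was not called.

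Chrm3, a Gq-coupled receptor, was also higher in both Tau libraries, at 94.5 and 94.0 CPM against 76.2 and 88.4 CPM in WT, with a log2 fold change of 0.19 (SE 0.09) that was not called. Chrm1, the main Gq-coupled receptor of cortical pyramidal neurons, was at 118.9 and 145.8 CPM in WT and 165.5 and 133.3 CPM in Tau, and the groups overlapped. Chrm2, a Gi-coupled receptor found on terminals and on interneurons, was at 43.4 CPM in the library labelled WT replicate 1 and at 27.9 CPM in WT replicate 2, against 29.2 and 31.3 CPM in Tau. The WT libraries lay on either side of both Tau libraries. The difference in Chrm2 was -0.24 on the log2 scale with both WT libraries and 0.11 without the library labelled WT replicate 1. That library also stood apart in Calb2, a calcium-binding protein of a class of interneurons, at 68.8 CPM against 9.62 to 12.8 CPM in the other 5. The part of such cells in the Chrm2 level was not tested.

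The nicotinic subunits and Ache did not pass the test. Chrna4 was at 34.1 and 37.8 CPM in WT and 46.0 and 32.7 CPM in Tau, with Tau replicate 1 above and replicate 2 below both WT libraries. Chrnb2, its usual partner, was at 73.3 and 65.3 CPM in WT and 80.9 and 71.8 CPM in Tau. Ache was at 47.0 and 41.2 CPM in WT and 49.4 and 42.4 CPM in Tau, a log2 fold change of 0.06 (SE 0.11). Over the 6 receptors the median log2 fold change was 0.16 and 5 of the 6 were positive, where the median of all genes tested was -0.000107. Without WT replicate 2, Chrm1 (0.33), Chrm3 (0.30) and Chrm2 (-0.53) were called, and without Tau replicate 2 Chrm1 (0.32) and Chrna4 (0.36) were called. The median of the receptors was 0.028 without Tau replicate 1 and 0.10 with a sex term. In Tau against WT, the sex term leaves WT replicate 2 as the only WT library of the same sex pattern. That fit is therefore close to the one without WT replicate 1 and is no separate check. Without the library labelled WT replicate 1 the median was 0.10, and the log2 fold changes were -0.018 for Chat, 0.15 for Ache, 0.035 for Chrm1, 0.089 for Chrm3, 0.063 for Chrna4 and 0.22 for Chrnb2.

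**Figure D2:**
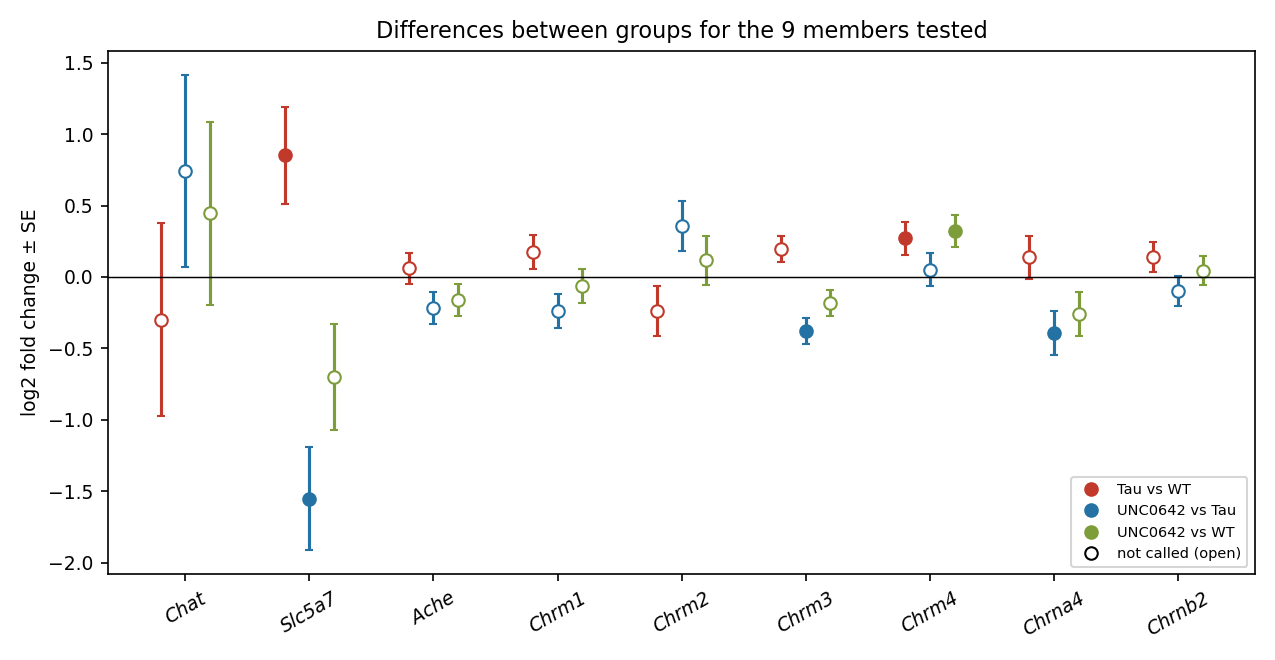
Log2 fold change with its SE from the edgeR fit for the 9 genes tested, in the 3 comparisons; filled points are called genes. Slc5a7 has the largest differences of the called genes, 0.85 for Tau against WT and -1.55 for UNC0642 against Tau, and Chat has the widest errors.

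Between UNC0642 and Tau, where the inhibitor cannot be told apart from the sex of the mice, Slc5a7, Chrm3 and Chrna4 were lower with UNC0642. The 3 called genes were all lower, among 9 tested, where 7.69% of all genes were called, 3.73% higher and 3.95% lower. After Benjamini-Hochberg adjustment edgeR called 0 of the 9, against 0.0196% of all genes. Without adjustment, DESeq2 placed 4 and limma-voom 3 of the 9 under 0.05, and both called 0 after adjustment. This comparison uses the same Tau libraries as the one above, so a low or a high value in them enters both with opposite sign.

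Slc5a7 was at 0.829 and 1.06 CPM with UNC0642 against 2.43 and 3.21 CPM in Tau. The 4 libraries did not overlap, and the log2 fold change was -1.55 (SE 0.36), or 0.341 times the Tau level, which met the unadjusted rule, while the adjusted p was 0.327 (edgeR, Benjamini-Hochberg). The call was kept in 6 of the 6 fits that left out a library, with values from -1.75 to -1.35, and a fit with a term for sex, which rests on the WT libraries for its estimate, gave -1.82 and kept the call. Its share of the counts of the 3 releasing-cell genes was 58.3% and 66.7% with UNC0642.

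Chat went the other way in its values. It was at 0.474 and 0.441 CPM with UNC0642, above both Tau libraries, but these levels rest on 8 and 10 counts, the log2 fold change was 0.74 (SE 0.67), and it did not pass the test. Chat passed the filter on low counts only through the UNC0642 libraries. Slc18a3 was at 0.118 and 0.0882 CPM, under the level of 3 counts in both, so its change was not detectable at this depth.

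Summed markers of striatal projection neurons were highest in the Tau libraries, as was Slc5a7. These neurons do not make acetylcholine but lie among striatal cholinergic interneurons. Their 14 counted markers summed to 338.3 and 332.8 CPM in WT, 369.4 and 578.4 CPM in Tau and 327.5 and 333.1 CPM with UNC0642. Tau replicate 2 was highest both for this sum and for Slc5a7. In Tau replicate 1 Slc5a7 was at 2.43 CPM, against 1.70 and 1.41 CPM in WT. The sum rests largely on its most abundant members, Adcy5 (139.8 and 149.2 CPM in WT) and Pde10a (79.3 and 79.6 CPM in WT), so its proportions are not those of single markers. With UNC0642 the sum was close to WT and 0 of the 13 tested markers were called against WT. Slc5a7, at 0.829 and 1.06 CPM with UNC0642, was below both WT libraries. Of the 13 markers tested, 9 were called higher in Tau than in WT and 9 lower with UNC0642 than in Tau, with 0 called in the other direction, where 3.72% and 3.95% of all genes were called in those directions. Without Tau replicate 2 these counts were 1 and 1. The count for Tau against WT was 6 without WT replicate 1 and 4 without WT replicate 2, and that for UNC0642 against Tau was 5 without either UNC0642 library and 4 with a sex term. Drd1, the D1 dopamine receptor, was at 19.6 and 15.9 CPM in WT, 23.0 and 36.9 CPM in Tau and 19.1 and 21.9 CPM with UNC0642, with both Tau libraries above the other 4. Tac1, a neuropeptide of the direct pathway, was at 12.5 and 13.7 CPM in WT, 18.9 and 26.8 CPM in Tau and 13.1 and 18.0 CPM with UNC0642, again with both Tau libraries above the other 4. Adora2a, the adenosine receptor of the indirect pathway, was at 1.58 and 1.41 CPM in WT and at 1.57 and 7.33 CPM in Tau, high in Tau replicate 2 alone, and Ppp1r1b, Rgs9 and Penk were likewise within the WT range in Tau replicate 1. Six3 reached at most 0.687 CPM and was not tested. Drd1, Drd2, Tac1, Penk, Adora2a, Ppp1r1b, Rgs9 and Pde10a are on the study's list of genes raised in Tau mice and lowered after UNC0642. That list was chosen on these same libraries, so the calls among these markers are no independent evidence. Oligodendrocyte markers summed to 3093 and 1526 CPM in WT, 2138 and 5794 CPM in Tau and 2241 and 2392 CPM with UNC0642, again highest in Tau replicate 2. Without Tau replicate 2, the log2 fold change of Slc5a7 was -1.35 and called for UNC0642 against Tau and 0.65 and not called for Tau against WT. The part of the dissected tissue in the Slc5a7 differences was not tested.

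**Figure D3:**
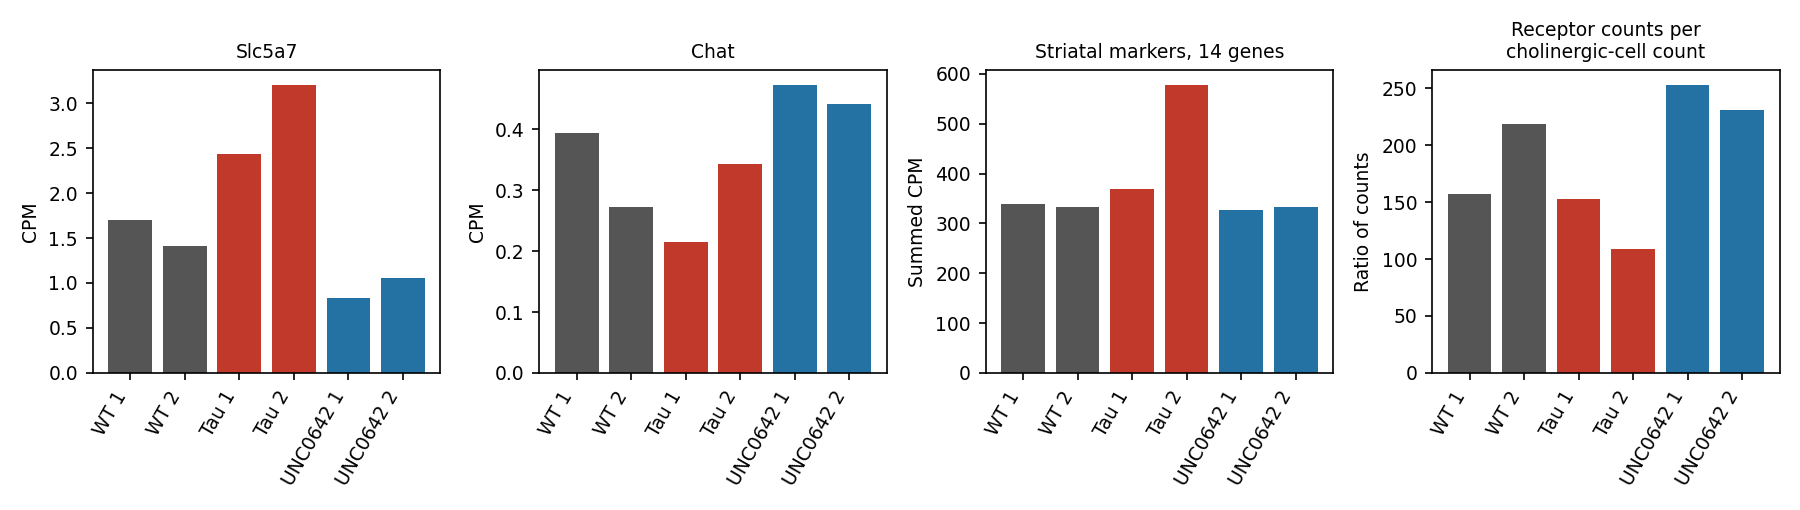
The 4 panels show 1 bar per library: Slc5a7 and Chat in CPM, the summed CPM of 14 striatal markers, and the receptor counts per count of the 3 releasing-cell genes. Slc5a7 and the striatal sum are highest in Tau replicate 2 (3.21 and 578.4 CPM), Chat is highest in UNC0642 replicate 1 (0.474 CPM), and the ratio is lowest in Tau replicate 2 (109.0) and highest with UNC0642 (253.2 and 231.0).

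Chrm3 was at 71.8 and 73.6 CPM with UNC0642 against 94.5 and 94.0 CPM in Tau. Replicates of both groups lay close together, the groups did not overlap, and the log2 fold change was -0.37 (SE 0.091), or 0.771 times the Tau level, which met the unadjusted rule, while the adjusted p was 0.331 (edgeR, Benjamini-Hochberg). It was called in 6 of the 6 fits that left out a library, at -0.39 to -0.36. With a term for sex the difference was -0.16 and was no longer called. In WT the male-pattern library, labelled replicate 1, was at 76.2 CPM and the female-pattern one at 88.4 CPM. The term for sex rests on these WT libraries alone, so it cannot tell sex from other differences between them.

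Chrna4 was at 31.9 and 28.3 CPM with UNC0642 against 46.0 and 32.7 CPM in Tau. The groups did not overlap, with the lower Tau library just above the higher UNC0642 library. The log2 fold change was -0.39 (SE 0.15), which met the unadjusted rule, while the adjusted p was 0.512 (edgeR, Benjamini-Hochberg). Without Tau replicate 1 it was -0.12 and was not called. Without UNC0642 replicate 2 it was -0.31 and was not called, and with a term for sex it was -0.25 and was again not called. The level of Chrna4 as a share of Chrnb2 was 56.9% and 45.5% in Tau and 47.6% and 37.4% with UNC0642, with WT at 46.5% and 57.9%.

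The other receptors and Ache did not pass the test. Chrm1 was at 125.9 and 128.0 CPM with UNC0642, a log2 fold change of -0.24 (SE 0.12), and Ache at 40.3 and 38.7 CPM, a change of -0.22 (SE 0.11). Chrm2 was at 39.8 and 37.6 CPM, above both Tau libraries, with a log2 fold change of 0.36 (SE 0.17). In the fit with a sex term the sign turned for Chrm1 (0.057) and Chrm2 (-0.28), while Ache was at -0.41 and passed the test. Chrm4 was at 23.4 and 23.7 CPM, close to the Tau level, and Chrnb2 at 67.0 and 75.7 CPM. The median over the 6 receptors was -0.17, with 4 of the 6 negative, against -0.0023 over all genes tested. It was -0.047 without Tau replicate 1 and -0.28 without Tau replicate 2. Without Tau replicate 2 there were 5 called genes, as Chrm1 (-0.38) and Ache (-0.32) joined the 3, and Chrm2 was called without either WT library (0.36 in both fits).

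Between UNC0642 and WT, which asks how treated transgenic mice compared with WT mice, Chrm4 was the 1 gene called among the 9 tested. The background was 9.47% of all genes, 3.77% higher and 5.69% lower. After Benjamini-Hochberg adjustment edgeR called 0 of the 9, against 0.216% of all genes, as did DESeq2 and limma-voom, each of which had 1 under 0.05 without adjustment. Both groups also enter the comparisons above.

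Chrm4 stood at 23.4 and 23.7 CPM with UNC0642 against 19.3 and 18.4 CPM in WT. The log2 fold change was 0.32 (SE 0.11), 1.25-fold, which met the unadjusted rule, while the adjusted p was 0.301 (edgeR, Benjamini-Hochberg). Without the library labelled WT replicate 1 it was 0.36 and kept the call. Without WT replicate 2 it was 0.29, and without UNC0642 replicate 1 or 2 it was 0.33 and 0.31, none of which passed the test. With a term for sex it was 0.29 and was not called. That fit in effect sets UNC0642 against WT replicate 1, so it is no check apart from the fit without WT replicate 2. As a share of Chrm1, Chrm4 was 16.2% and 12.6% in WT, 13.0% and 17.9% in Tau and 18.6% and 18.5% with UNC0642, and both UNC0642 libraries were above the other 4.

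Slc5a7 was lower with UNC0642 than in both WT libraries, with a log2 fold change of -0.70 (SE 0.37) that was not called. Chat was at 0.45 (SE 0.64). Chrm3 was at -0.18 and Chrna4 at -0.26. Leaving out the library labelled WT replicate 1 gave 3 called genes in place of 1, with Chrm2 at 0.47 and Chrm3 at -0.28 joining Chrm4. In that fit Slc5a7 was at -0.56, Chat at 0.73, Ache at -0.061, Chrm1 at -0.20, Chrna4 at -0.33 and Chrnb2 at 0.13. The share of all genes called in that fit is not given, so the larger number of calls is no result about these genes. Leaving out WT replicate 2, so that all 3 libraries compared had the male pattern, gave 0 called genes.

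Among the 3 genes of the releasing cells, Slc5a7 was the only one that passed the test in any comparison of all 6 libraries. The receptor counts per count of Chat, Slc5a7 and Slc18a3 were 157.0 and 218.3 in WT, 153.0 and 109.0 in Tau and 253.2 and 231.0 with UNC0642. Both UNC0642 libraries lay above the other 4 and both Tau libraries below both WT libraries. The summed level of the 6 receptors was 365.2 and 383.7 CPM in WT, 437.7 and 387.0 CPM in Tau and 359.7 and 366.9 CPM with UNC0642. Among 16370 other genes, those most like the mean log2 level of the 6 receptors over the libraries were Dnajc28, Syngr1, Trim44, Sulf2 and Ice1 (Pearson r 0.978 to 0.994). The like list for Chat, Slc5a7 and Slc18a3 is not given, because Chat and Slc18a3, with 0 to 10 counts, are 2 of its 3 genes. The 6 receptors themselves did not share 1 pattern. Their pairwise r ran from -0.864 for Chrm2 and Chrm3 to 0.84 for Chrm1 and Chrna4, so their mean joins unlike profiles. The genes named were the highest of 16370, so their high r is no evidence of a link. These likenesses rest on 6 libraries and are given as a description.

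Other genes of the cholinergic system were counted from a list of 40, of which 32 passed the filter on low counts. Between Tau and WT 2 were called higher and 0 lower, between UNC0642 and Tau 0 higher and 2 lower, and between UNC0642 and WT 2 in each direction, with 0 past the Benjamini-Hochberg adjustment in edgeR in any comparison and 3, 3 and 4 under an unadjusted p of 0.05. Over all genes 9.81%, 7.69% and 9.47% were called in the 3 comparisons, against 2, 2 and 4 of these 32. The median log2 fold changes of the 32 were 0.06, -0.05 and -0.01.

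Among 15 further receptor genes 7 were tested. Chrna7, which forms a fast calcium-permeable channel on its own, was the most abundant, at 19.5 to 21.6 CPM in all libraries, and its groups differed by less than their SE. Chrnb3, an accessory nicotinic subunit, was at 2.84 and 4.80 CPM in WT, 3.65 and 3.66 CPM in Tau and 1.42 and 1.24 CPM with UNC0642. Both UNC0642 libraries were the lowest of the 6. The log2 fold change of Chrnb3 was -1.46 against Tau (SE 0.34, edgeR adjusted p 0.327) and -1.53 against WT (SE 0.33, edgeR adjusted p 0.117). Both calls were kept in 6 of the 6 fits that left out a library, but with a term for sex the difference from Tau was -0.71 and was not called. Chrna5, an accessory subunit that joins Chrna4 and Chrnb2 in deep-layer neurons, was at 6.94 and 5.47 CPM in WT and 7.54 and 11.0 CPM in Tau, a log2 fold change of 0.57 (SE 0.22), which was 0.40 without WT replicate 2 and 0.28 without Tau replicate 2 and then not called. The other 8, among them Chrm5, the remaining muscarinic receptor, with 0 to 11 counts, did not pass the filter.

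**Figure D4:**
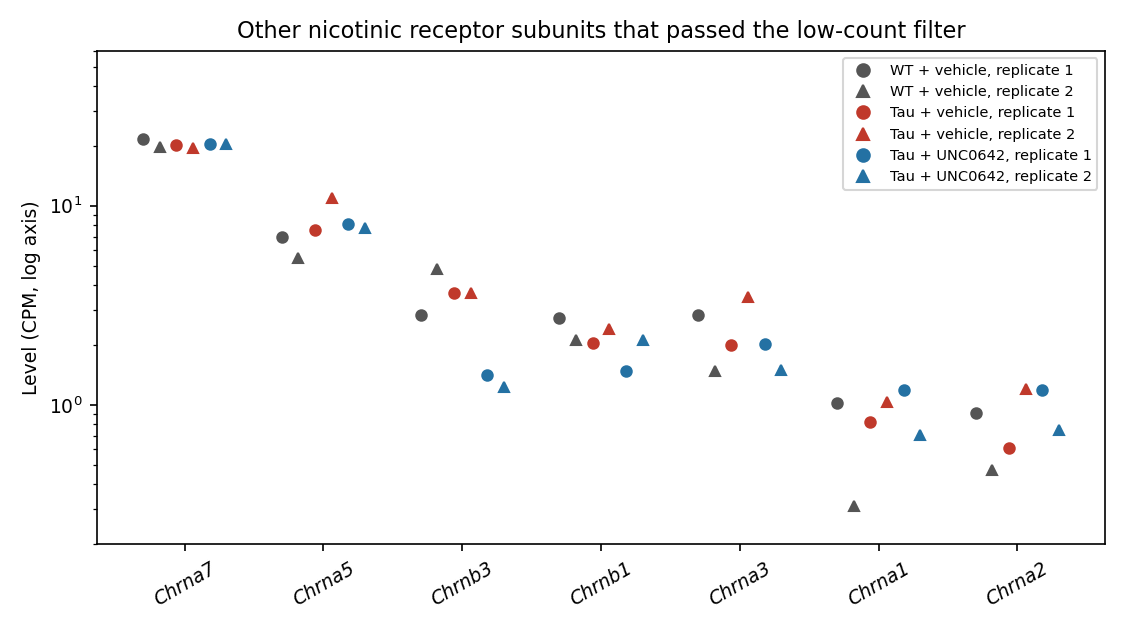
Level in CPM, on a log axis, of the 7 further nicotinic subunits that passed the filter on low counts; colour gives the group and the symbol the replicate number. Chrna7 is flat at 19.5 to 21.6 CPM, and Chrnb3 is lowest in the UNC0642 libraries, at 1.42 and 1.24 CPM.

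Proteins that bind receptors or anchor the esterase made up the next group of 9, all tested. Lypd1, a membrane-anchored protein of the Ly6 family that dampens nicotinic receptors, was at 29.1 and 20.6 CPM in WT, 37.2 and 33.6 CPM in Tau and 17.8 and 26.3 CPM with UNC0642. Both Tau libraries were above the other 4. The log2 fold change was 0.51 for Tau against WT (SE 0.19) and -0.68 for UNC0642 against Tau (SE 0.20), and with a sex term both were larger, at 0.78 and -1.18. Without WT replicate 2 or without Tau replicate 1 the first was 0.28 and 0.43 and was not called, and without UNC0642 replicate 1 the second was -0.43 and was not called. Like Slc5a7, Lypd1 is on the study's list of genes raised in Tau mice and lowered after UNC0642, chosen on these same libraries. The exons of Lypd1 overlap Gpr39 on the opposite strand by 1202 bases. Its relative Lynx1, which acts on the same receptors, was far more abundant at 425.6 to 529.7 CPM and was not called in any comparison. For Tau against WT its log2 fold change was 0.24 (SE 0.079), 1.18-fold, with both Tau libraries above both WT libraries. There its unadjusted edgeR p was 0.0108 (adjusted p 0.299), and it missed the call only through the fold limit of 1.2. Colq, the collagen tail that anchors Ache, had 18 and 15 counts in WT and 5 and 2 counts with UNC0642, a log2 fold change of -1.80 (SE 0.73) that was not called when either WT library or UNC0642 replicate 2 was left out. In Tau it had 8 and 4 counts. Colq passed the filter on low counts only through the WT libraries, so the filter itself favoured a lower value in the other groups. Its difference from WT is therefore no evidence of a fall.

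Of 6 genes of choline handling and 10 of signalling below the muscarinic receptors, 1 each was called, both higher with UNC0642 than in WT. In that comparison 9.47% of all genes tested were called, 3.77% higher. With so few genes in each list, 1 call is no result about either list. Pcyt1a, which makes CDP-choline for phosphatidylcholine, was at 41.6 and 38.4 CPM in WT and 49.7 and 49.5 CPM with UNC0642, a log2 fold change of 0.31 (SE 0.093). Rgs4, which shortens Gq and Gi signals, was at 489.4 and 604.6 CPM in WT and 683.1 and 677.3 CPM with UNC0642 (log2 fold change 0.31, SE 0.10), and it was not called without the library labelled WT replicate 1 (0.17) or without UNC0642 replicate 1 or 2 (0.31 and 0.32). Pcyt1a was not called without WT replicate 2 (0.25).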

How the data were processed

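Bulk RNA of the PFC was sequenced in 6 libraries of 3 groups. Per the labels, total RNA was treated with DNase, depleted of ribosomal RNA and made into stranded libraries, reads were trimmed with Cutadapt and aligned with TopHat2 at default settings to mouse RefSeq mRNAs, and the submitters' processing notes name mm10, SAMtools, featureCounts and edgeR. The authors deposited raw counts per gene symbol, 1 table per library, with no normalization. Versions, the annotation used for counting and its strand setting are not given in the sources used here. The labels call the libraries biological duplicates, and equal replicate numbers mark different mice. In 2 libraries, 26 symbols appeared as calendar dates, and rows were joined by position.

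The members and the gene lists were chosen with earlier results of these data known. Genes were kept by edgeR's filterByExpr (minimum count 10, minimum total 15, about 0.424 CPM in 2 libraries), which left 20409. They were scaled by TMM (factors 0.966 to 1.04) and fitted with edgeR 4.0.16 (quasi-likelihood test, all 6 libraries, a mean per group, two-sided), with Benjamini-Hochberg adjustment over all genes. The residual degrees of freedom were 3, and the biological coefficient of variation was 12.3%. CPM values are TMM-scaled, and fold changes are fitted on counts. A call was an unadjusted p under 0.05 with a fold change of at least 1.2, the limits the study states. Named genes were the 10 members, every called gene of the cholinergic lists, label checks and the 5 genes most like the receptors in pattern. Alternatives were other scalings, filters and thresholds, DESeq2 1.42.0, limma-voom (limma 3.58.1), a replicate block, a sex term read from Xist and Ddx3y, 2 groups alone, and each library left out. Counts of marker genes without single libraries were added after seeing the data. Scripts were tested on simulated data. Gene models came from GENCODE M21 and start windows from RefSeq (GRCm38.p6), and 53669 of the 54429 symbols matched 1 GENCODE gene.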

Additional observations from a re-analysis of the deposited data

How the results depend on the processing

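Of the 9 tested members, the number called for Tau against WT was 2. It was 1 with library size alone, no filter, at least 10 counts in every library, limma-voom, the replicate block, the 2 groups alone or a fold of at least 1.5, it was 0 with DESeq2, the sex term or adjusted p, and it was 0 to 3 with each library left out. For UNC0642 against Tau it was 3, with 1 at a fold of at least 1.5, 0 by adjusted p and 2 to 5 with each library left out. For UNC0642 against WT it was 1, with 0 under the sex term, a fold of at least 1.5 or adjusted p, and 0 to 3 with each library left out. For UNC0642 against Tau the number was 2 with the sex term, namely Slc5a7 and Ache, with Chrm3 and Chrna4 no longer called. It was 4 with no filter, with DESeq2 or with the 2 groups alone. DESeq2 size factors changed none of the 3 counts. Replicate numbers did not pair the libraries (correlations of replicate differences -0.0344, -0.0212 and -0.00335), and the replicate block changed 1 call, that of Chrm4 for Tau against WT. Signs turned for Ache with library size alone (-0.011, Tau against WT). With the sex term they turned for Chrm2 in Tau against WT (0.11), for Chrm1 (0.057), Chrm2 (-0.28) and Chrm4 (-0.014) in UNC0642 against Tau, and for Chrm1 (0.095), Chrm2 (-0.17) and Chrnb2 (-0.037) in UNC0642 against WT. With each library left out, log2 fold changes that turned sign ranged, for Tau against WT, from -0.62 to 0.039 for Chat, -0.060 to 0.17 for Ache, -0.53 to 0.11 for Chrm2 and -0.14 to 0.36 for Chrna4. They ranged from -0.024 to 0.13 for Chrm4 in UNC0642 against Tau, and from -0.20 to 0.093 for Chrm1, -0.17 to 0.47 for Chrm2 and -0.051 to 0.13 for Chrnb2 in UNC0642 against WT. The cause was not tested. Library size alone moved the median of all genes by -0.0699, 0.0309 and -0.0389. Where a group kept 1 library, that library was assumed to vary like the others. The share of all genes called in those fits is not given, so their numbers of called genes cannot be set against a background. The median of Chat, Slc5a7 and Slc18a3 was not run because Slc18a3 was not tested. Chat and Slc18a3, at 0 to 10 counts, are limited by depth.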
